A study of Homo sapiens with 8 samples.

Results

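Human genes named ZNF with numbers from ZNF600 to ZNF899 form a block of the zinc finger gene nomenclature, and their transcripts were followed in U87 cells, a human glioblastoma cell line, after knockdown of RND3. RND3 encodes a small GTPase-like protein that acts on the actin cytoskeleton. Members were all genes whose current RefSeq symbol is ZNF followed by such a number, with or without letters after it. This gave 206 symbols, of which 158 had at least 1 array probe matched through its transcript accession, out of 19483 gene symbols on the array. Those 158 genes (152 protein-coding genes and 6 pseudogenes) were read by 220 probes, and 66 of them lie on chromosome 19. The remaining 48 symbols were not analysed here.

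Total RNA was hybridised to 8 single-colour Agilent arrays. At 24 h after reverse transfection there were 3 arrays of cells given a non-silencing siRNA (siControl) and 3 of cells given siRNA against RND3 (siRND3), and at 48 h there was 1 array of each. All groups were the same line and were transfected the same way. The methods name a pair of RND3 siRNAs without saying which array received which, and nothing says whether replicates were separate transfections, so p-values measure only the spread between these samples.

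Genes of this kind encode C2H2 zinc finger proteins, whose tandem fingers each hold a zinc ion and together read a stretch of DNA. Many of them, above all those in the clusters of chromosome 19, carry a KRAB domain that recruits TRIM28 (KAP1). TRIM28 in turn brings the histone methyltransferase SETDB1, heterochromatin protein 1 and the NuRD histone deacetylase complex, and this machinery is best known for silencing transposable elements. Most of the individual proteins have no described function.

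The targeted gene checked the labels. RND3 had log2 signals of 11.88, 11.91 and 11.90 on the siControl arrays at 24 h and 10.13, 10.18 and 10.41 on the siRND3 arrays, a fall of 1.66 (SE 0.09, limma adjusted p = 0.000339). At 48 h it read 11.48 in siControl and 9.83 in siRND3. Signals are log2 processed intensities, quantile-normalised over the 8 arrays, and differences are siRND3 minus siControl on that scale, so that 1 unit is 2-fold. Arrays of the same group correlated at 0.991 to 0.995 and arrays of different groups at 0.987 to 0.989 at 24 h. All arrays lay on 1 slide and the treatments lay in different rows of it, so row and treatment cannot be told apart. Of the glioma markers, VIM and CD44 were bright (17.4 and 15.8 in siControl), while none of the probes of GFAP, SOX2 or S100B, genes of glial and neural stem cells, was bright enough to be tested.

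At 24 h more zinc finger genes of the block were up-regulated than down-regulated in siRND3 cells. Of the 158 genes with a probe, 120 had a probe that the scanner software marked as well above background on every array of siControl, of siRND3 or of both, and were tested. The call rule was a limma p under 0.05 after Benjamini-Hochberg adjustment over 28762 probes, with at least 1 probe of the gene passing and none passing the other way. By this rule 28 genes rose (23.3%) and 5 fell (4.17%), against a background of 7.35% of all 14805 tested genes rising and 9.29% falling. The other 87 genes did not pass. The median difference over the 120 genes was 0.16, beside 0.04 over all genes tested, and 86 of them (71.7%) had a positive difference, beside 57.3% of all genes. At the passing probe with the largest change, and not the brightest probe, called rises had a median of 0.66 and called falls a median of -0.53. The 3 siRND3 arrays lay above all 3 siControl arrays for 48 genes and below them for 12, where the background was 24.1% of all genes above and 17.5% below. The count of rises was 16 without siControl replicate 1 and 16 without siControl replicate 3, and the count of falls was 3, 3 and 2 without siControl replicates 1, 2 and 3.

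**Figure D1:**
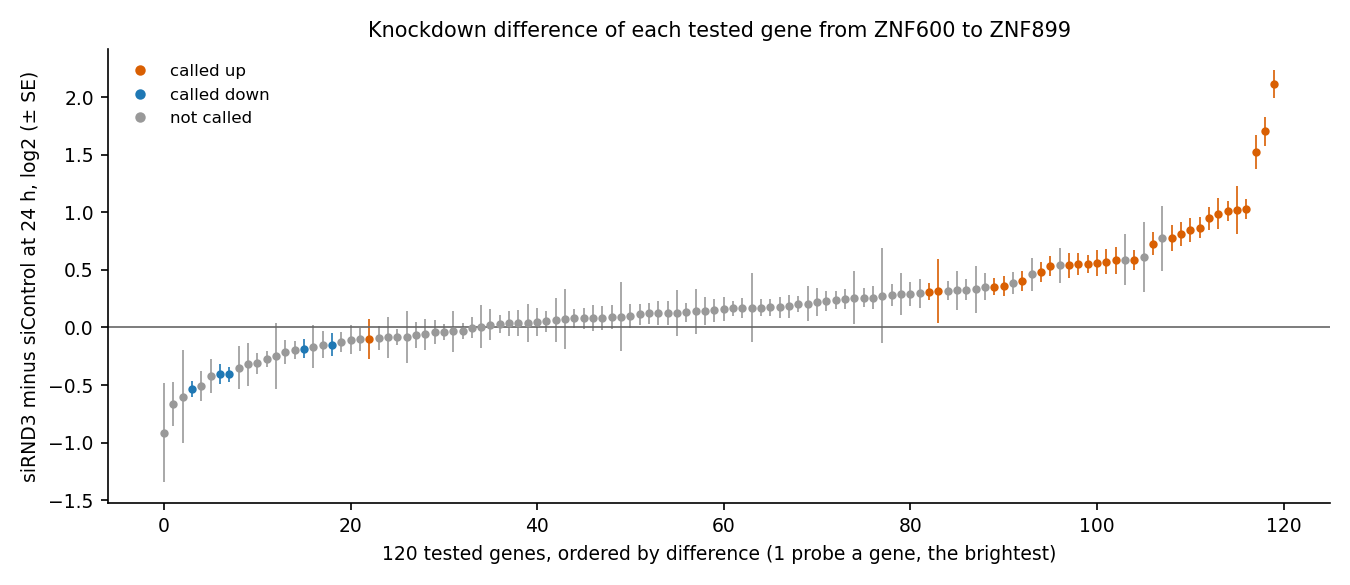
Difference between siRND3 and siControl at 24 h (log2, with its SE) for each of the 120 tested genes from ZNF600 to ZNF899, ordered by size and coloured by call. Each gene is drawn by its brightest probe, so ZNF746, called up through another probe, sits below 0. The right-hand tail reaches 2.11 (ZNF616), whereas the lowest value, -0.91 (ZNF804A), did not pass.

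The genes numbered below 600 gave a similar picture. Of 331 genes from ZNF1 to ZNF599 with a probe, 266 were tested, 51 rose (19.2%) and 7 fell (2.63%), and their median difference was 0.18. The rises numbered 27, 28 and 28 without siControl replicates 1, 2 and 3 and 32 without siRND3 replicate 3. The falls numbered 2 to 4 with any 1 array left out. The difference between the 2 blocks was not tested, and nothing here sets ZNF600 to ZNF899 apart from the lower numbers.

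**Figure D2:**
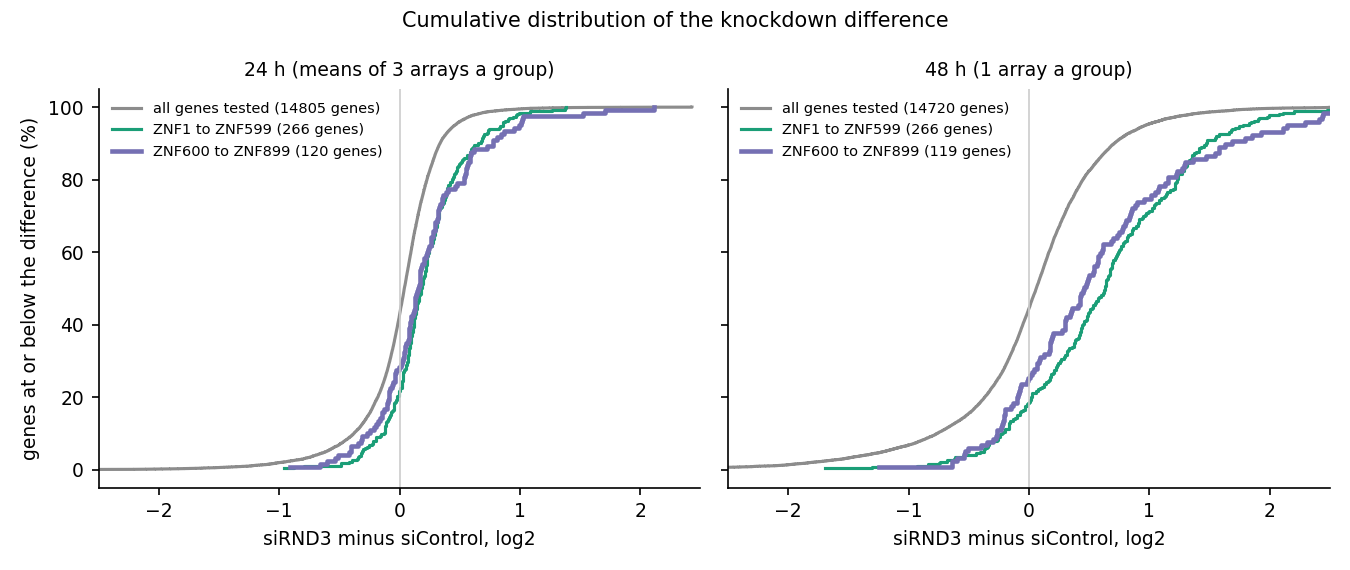
Cumulative share of genes (%) against the siRND3 minus siControl difference (log2) at 24 h (left, means of 3 arrays a group) and 48 h (right, 1 array a group), for all tested genes, ZNF1 to ZNF599 and ZNF600 to ZNF899. The axis stops at 2.5 on either side. Both zinc finger curves lie to the right of the curve for all genes, with medians of 0.16 and 0.18 against 0.04 at 24 h and of 0.46 and 0.63 against 0.06 at 48 h.

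ZNF616, a gene of the chromosome 19 clusters, had the largest rise. Its log2 signals were 5.98, 6.17 and 5.87 on the siControl arrays and 8.10, 7.96 and 8.30 on the siRND3 arrays, a rise of 2.11 or 4.33-fold (SE 0.12, limma adjusted p = 0.000358). ZNF721 read 6.99, 7.29 and 7.12 in siControl and 8.96, 8.62 and 8.93 in siRND3, a rise of 1.70 or 3.26-fold (SE 0.13, limma adjusted p = 0.00079). In both genes every siRND3 array exceeded every siControl array by more than the spread within either group. ZNF805 read 4.53, 4.99 and 5.01 in siControl and 6.43, 6.25 and 6.42 in siRND3, a rise of 1.53 (SE 0.15, limma adjusted p = 0.00192). ZNF845 read 6.91, 6.92 and 6.75 against 7.99, 7.84 and 7.83, and ZNF629 read 8.63, 8.59 and 8.54 against 9.52, 9.73 and 9.55. Both rose close to 2-fold, by 1.02 (SE 0.09, limma adjusted p = 0.00118) and 1.01 (SE 0.08, limma adjusted p = 0.00111), with no overlap between the groups.

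ZNF658, known as a transcriptional regulator of zinc homeostasis genes, had 3 tested probes and all of them rose, by 0.87, 0.94 and 1.05 (limma adjusted p from 0.00216 to 0.00323). The probe with the largest change read 5.35, 5.39 and 5.17 in siControl and 6.15, 6.44 and 6.47 in siRND3. ZNF618, which encodes a protein that associates with UHRF2, a reader of hydroxymethylated DNA, rose by both of its tested probes. They gave 0.95 and 1.04 (limma adjusted p = 0.00264 and 0.00749), and the latter read 3.67, 3.77 and 3.93 against 4.93, 5.02 and 4.54. For these 2 genes separate probes therefore gave the same direction and similar sizes.

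ZNF841 read 6.41, 6.16 and 6.28 in siControl and 7.36, 7.01 and 7.45 in siRND3, a rise of 0.99 (SE 0.13, limma adjusted p = 0.0069). ZNF736 read 4.04, 4.26 and 4.67 against 5.35, 5.03 and 5.63, a rise of 1.02 (SE 0.21, limma adjusted p = 0.0281), a call lost in 5 of 16 alternative settings, among them those without siControl replicate 1 or 2 and without siRND3 replicate 1 or 3. ZNF813 rose by 1.08 through a probe reading 4.56, 4.04 and 4.31 against 5.66, 5.10 and 5.41 (SE 0.19, limma adjusted p = 0.0158). The call of ZNF813 was lost without siControl replicate 3. The groups did not overlap for any of these 3 probes, but the brighter probe of ZNF813 gave only 0.32 with overlapping groups (limma adjusted p = 0.503). Under normexp background correction, which adds an offset to every spot, the differences shrank to 0.24 for ZNF618, 0.52 for ZNF658, 0.54 for ZNF805, 0.32 for ZNF813, 0.34 for ZNF736, 0.62 for ZNF841 and 0.68 for ZNF845, and that of ZNF616 to 1.27. All stayed positive and called.

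**Figure D3:**
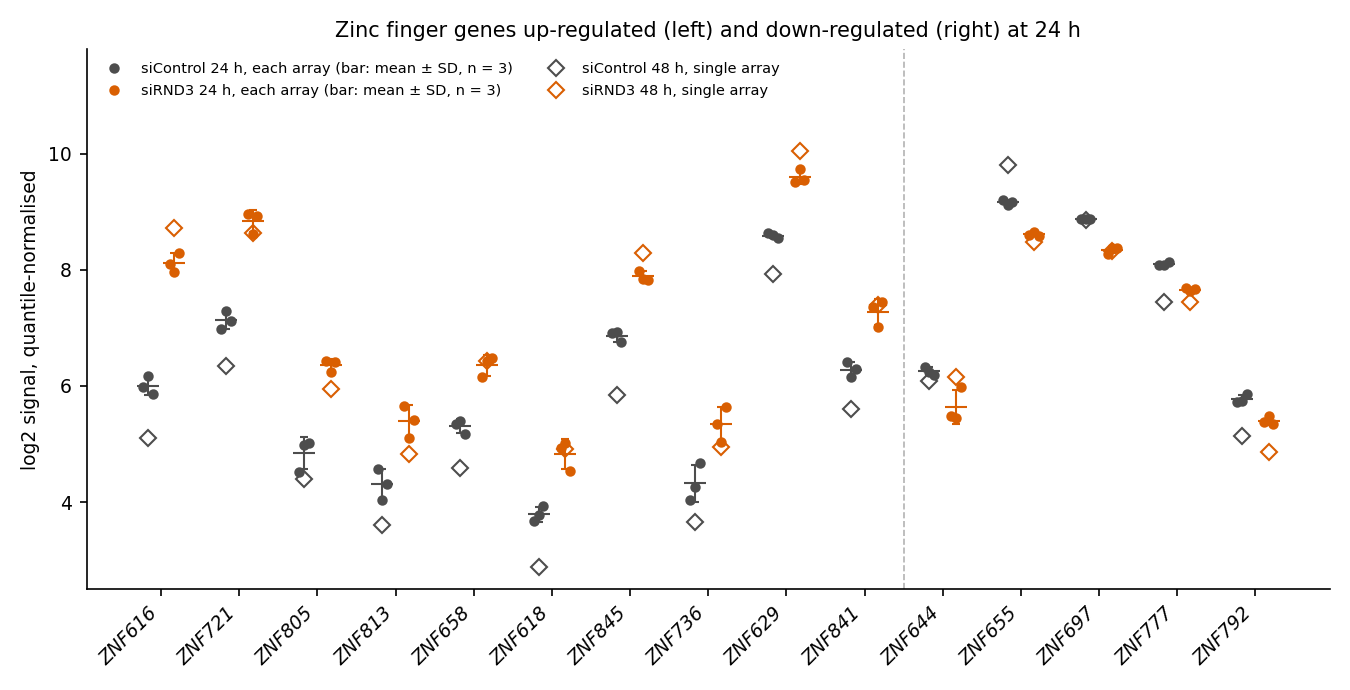
Log2 quantile-normalised signal on every array for the 10 genes with the largest called rises among those whose probe cleared background on each of the 6 arrays at 24 h (left of the dashed line, which leaves out ZNF765) and the 5 with called falls (right), at the probe with the largest passing change. Filled points are single arrays at 24 h with mean and SD bars (n = 3 a group) and open diamonds are the single arrays at 48 h. ZNF616 lies between 5.87 and 6.17 in siControl and between 7.96 and 8.30 in siRND3 at 24 h.

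The other 18 called rises were those of ZNF619, ZNF624, ZNF626, ZNF667, ZNF675, ZNF676, ZNF688, ZNF714, ZNF727, ZNF732, ZNF746, ZNF765, ZNF766, ZNF768, ZNF775, ZNF782, ZNF784 and ZNF836. They ran from 0.31 (ZNF688) to 1.69 (ZNF765, through a dim probe that cleared background on only 4 of the 6 arrays, its brighter probe rising by 0.85). ZNF676 likewise cleared background on 4 of 6. ZNF746, which encodes PARIS, a repressor degraded through parkin, rose by 0.40 (limma adjusted p = 0.0251) at its dimmer probe and had a difference of -0.10 at its brighter one (limma adjusted p = 0.752). ZNF746 was the single exception among the 13 called genes with several tested probes, the other 12 having all probes in 1 direction. Only 5 of the 13 had 2 or more probes that passed. The other probe of ZNF714 gave 0.14 (limma adjusted p = 0.397) and that of ZNF836 gave 0.17, and neither passed.

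Few genes of the block fell, and by less. ZNF644, whose protein works with the histone methyltransferases EHMT1 and EHMT2, fell at both of its probes. The dimmer probe read 6.33, 6.23 and 6.19 in siControl and 5.48, 5.45 and 5.98 in siRND3, a difference of -0.62 (limma adjusted p = 0.0481), and the brighter probe gave -0.41 (limma adjusted p = 0.0313). ZNF777 also fell at both probes, by 0.44 and 0.41 (limma adjusted p = 0.00954 and 0.0129), and its siControl arrays read 8.09, 8.08 and 8.13 against 7.68, 7.63 and 7.66 in siRND3. ZNF655, whose protein has been tied to cell-cycle control, read 9.20, 9.11 and 9.17 in siControl and 8.61, 8.66 and 8.58 in siRND3, a difference of -0.55 (limma adjusted p = 0.00526), while its other probe gave -0.18 (limma adjusted p = 0.203).

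ZNF697 read 8.88, 8.87 and 8.88 against 8.28, 8.37 and 8.38, a difference of -0.53 (limma adjusted p = 0.00559). ZNF792 read 5.72, 5.74 and 5.86 against 5.38, 5.48 and 5.34, a difference of -0.37 (limma adjusted p = 0.0305), with -0.15 at its other probe (limma adjusted p = 0.4). In all 5 genes every siRND3 array lay below every siControl array at the called probe, and none of the 5 fell as much as 2-fold. The calls of ZNF644 and ZNF792 were each lost in 8 of 16 alternative settings and that of ZNF777 in 2, and under normexp the differences were -0.27 for ZNF644, -0.15 for ZNF792 and -0.30 for ZNF777.

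The better studied members mostly did not pass. ZNF622, a ribosome maturation factor, had a difference of 0.17 (SE 0.07), ZNF638, a nuclear protein that silences unintegrated retroviral DNA, -0.21 (SE 0.11), and ZNF652, a repressor that works with CBFA2T3, 0.14 (SE 0.12). ZNF668, which has a role in DNA repair, had 0.33 with no overlap between groups (SE 0.09, limma adjusted p = 0.0597), and it passed in 4 of 16 alternative settings. ZNF687, mutated in a form of Paget disease of bone, had 0.22, ZNF692 -0.03, ZNF830, a factor of pre-mRNA splicing and genome stability, 0.17, and ZNF827, which brings NuRD to telomeres, -0.11.

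ZNF703, a repressor amplified in breast cancer, had 0.08 at its brighter probe and -0.23 at the other. ZNF683 (HOBIT), a factor of tissue-resident lymphocytes, was dim and had 0.17 with an SE of 0.30. ZNF804A, known from genetic studies of psychosis, had the lowest value of the block, -0.91, but its siRND3 arrays spread from 2.69 to 4.36 (SE 0.43, limma adjusted p = 0.224). ZNF711, tied to X-linked intellectual disability, ZNF750, a factor of epidermal differentiation, and ZNF808, a factor of pancreas development, were not well above background on any array and were not tested. They were among 38 genes with a probe but no test, 30 of which were not well above background on any 24 h array.

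Promoter sequence was available for 96 of the 120 tested genes, taken from RefSeq (GRCh38.p14) as the 250 bases before the first listed start. The GC box GGGCGG, the site bound by Sp1-type factors, was found on either strand in 67 of the 96 (69.8%), in 58.8% of the promoters of ZNF1 to ZNF599 and in 42.3% of 27305 promoters of all genes. Among the called rises it was in 16 of 22 (72.7%), and among the genes not called in 48 of 70 (68.6%). CCAAT was present in 51.0% of the tested genes, 43.9% of ZNF1 to ZNF599 and 33.0% of all promoters, and TATAAA in 3.12%, 2.03% and 11.1%. CCGGAAG, a core site of ETS factors, was in 24 of the 96, in 32.1% of ZNF1 to ZNF599 and in 8.82% of all promoters. It was in 2 of 22 among the called rises (9.09%) and in 22 of 70 among the genes not called (31.4%). TGACGTCA was in none of the 96, in 4.39% of ZNF1 to ZNF599 and in 1.77% of all promoters. All motifs were searched on both strands and none contains another. These are matches of letters and not shown binding sites, and the shares were not tested.

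The promoters below belong to the genes on which the results turn, the largest rise on chromosome 19 (ZNF616), its neighbours ZNF766 and ZNF845, ZNF805 from another run on that chromosome, and ZNF664, whose level changed most with time. They read 5′ to 3′ on the strand of the gene, and capitals mark GGGCGG or its reverse complement.
ZNF616 (chr19:52139939-52140188, minus strand): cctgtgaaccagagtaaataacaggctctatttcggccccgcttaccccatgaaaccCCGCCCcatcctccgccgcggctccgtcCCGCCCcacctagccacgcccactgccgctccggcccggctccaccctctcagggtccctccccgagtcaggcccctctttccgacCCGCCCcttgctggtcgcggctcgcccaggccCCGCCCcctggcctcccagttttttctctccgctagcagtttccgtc
ZNF766 (chr19:52269337-52269586, plus strand): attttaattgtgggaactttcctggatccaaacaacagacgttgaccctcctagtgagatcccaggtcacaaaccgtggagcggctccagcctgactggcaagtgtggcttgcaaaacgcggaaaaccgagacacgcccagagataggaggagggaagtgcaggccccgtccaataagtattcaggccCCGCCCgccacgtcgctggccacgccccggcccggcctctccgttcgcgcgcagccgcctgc
ZNF845 (chr19:53333499-53333748, plus strand): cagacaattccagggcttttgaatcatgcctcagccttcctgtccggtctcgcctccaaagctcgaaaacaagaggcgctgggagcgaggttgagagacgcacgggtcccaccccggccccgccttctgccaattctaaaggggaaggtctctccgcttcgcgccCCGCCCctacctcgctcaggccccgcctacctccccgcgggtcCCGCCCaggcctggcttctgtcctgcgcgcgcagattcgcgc
ZNF805 (chr19:57240382-57240631, plus strand): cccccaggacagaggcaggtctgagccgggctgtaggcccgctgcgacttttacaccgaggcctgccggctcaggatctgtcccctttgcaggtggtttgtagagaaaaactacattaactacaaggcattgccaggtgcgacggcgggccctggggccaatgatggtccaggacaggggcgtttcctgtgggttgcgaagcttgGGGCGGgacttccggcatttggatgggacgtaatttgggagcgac
ZNF664 (chr12:123972965-123973214, plus strand): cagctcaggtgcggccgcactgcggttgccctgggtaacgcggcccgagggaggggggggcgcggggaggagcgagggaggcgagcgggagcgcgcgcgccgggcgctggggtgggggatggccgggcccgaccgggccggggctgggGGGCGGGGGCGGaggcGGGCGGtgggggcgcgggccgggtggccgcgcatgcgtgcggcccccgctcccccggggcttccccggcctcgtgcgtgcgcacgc
ZNF616 had 4 such boxes, ZNF664 had 3, ZNF845 had 2, and ZNF766 and ZNF805 had 1 each. The G and C content of these windows ran from 60.4% (ZNF805) to 84.4% (ZNF664), beside a median of 61.6% over the 96 and 58.0% over all promoters.

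The position of the genes was not used in choosing them. On chromosome 19, 14 of 48 tested members rose and 1 fell, with a median difference of 0.28. On the other chromosomes 14 of 72 rose and 4 fell, with a median of 0.09. Genes of chromosome 19 without a ZNF symbol rose in 68 of 883 cases (7.70%) and fell in 43. The genes from ZNF1 to ZNF599 were not split by chromosome, and differences between chromosomes were not tested. Members that neighbour each other in the RefSeq gene order, with at most 20 other entries between them, formed 5 runs with at least 5 tested genes. The run from ZNF649 to ZNF813 on chromosome 19 held 15 tested members and 7 of the called rises, in order ZNF841, ZNF616, ZNF836, ZNF766, ZNF845, ZNF765 and ZNF813. No member of this run fell, 13 of 15 had positive differences, and the median was 0.46. The count of 7 ranged from 5 to 10 over the alternative settings. Of the 9 tested genes from ZNF1 to ZNF599 that lie within the same run, 2 rose (ZNF137P by 0.97 and ZNF320 by 0.84), with a median of 0.34.

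**Figure D4:**
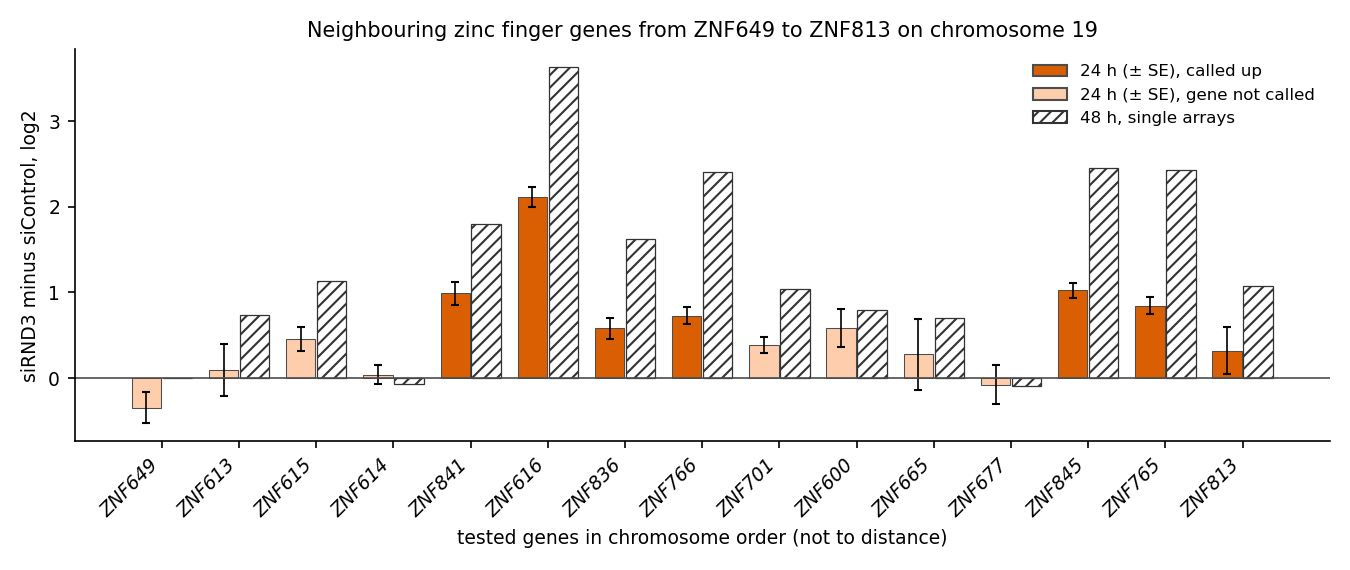
Neighbouring members from ZNF649 to ZNF813 on chromosome 19, drawn in chromosome order and not to distance. Solid bars give siRND3 minus siControl at 24 h (log2, with SE) at the brightest probe of each gene, dark where the gene was called up. ZNF813, called up through another probe, is drawn dark at 0.32 (SE 0.28). Hatched bars give siRND3 minus siControl between the single arrays at 48 h (none for ZNF649). The called genes fall into 2 stretches, ZNF841 to ZNF766 and ZNF845 to ZNF813, and the hatched bars of ZNF616 (3.63), ZNF845 (2.45), ZNF765 (2.43) and ZNF766 (2.41) are the tallest.

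Counts in the other runs were lower, and differences between runs were not tested. The run from ZNF653 to ZNF791 on the short arm of the same chromosome had 10 tested members, none of which passed, with a median of 0.08. The run from ZNF805 to ZNF606 had 6 tested members, all with positive differences (median 0.31) and 1 call, that of ZNF805. On chromosome 16, 3 of 11 members from ZNF771 to ZNF843 rose (ZNF768, ZNF688 and ZNF629). On chromosome 7, 2 of 7 members from ZNF786 to ZNF775 rose (ZNF746 and ZNF775) and 1 fell (ZNF777). Zinc finger genes of a cluster are copies of each other, so probes may share sequence, and whether neighbours were read by the same transcripts was not tested.

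Part of a wider list of corepressor genes rose as well. The list held 29 genes, all tested, of KRAB cofactors, histone H3K9 methylation and related silencing factors. It reached beyond TRIM28 and the partners named above, for instance to TASOR, SUV39H2 and EHMT1. At 24 h 9 of the 29 rose (31.0%) and none fell, beside the same background of 7.35% and 9.29%, and the median difference was 0.23. TRIM28 itself had a difference of 0.15 (limma adjusted p = 0.336) and SETDB1 -0.24 (limma adjusted p = 0.082), so neither passed. TASOR, a subunit of the HUSH silencing complex, rose by 0.66 (limma adjusted p = 0.00439), HDAC1, a deacetylase of NuRD, by 0.52 (limma adjusted p = 0.00786), and SUV39H2, a histone methyltransferase, by 0.51 (limma adjusted p = 0.00982). EHMT1, the partner of the ZNF644 protein, rose by 0.42 (limma adjusted p = 0.0127). The others that passed were CBX1 and CBX5, which encode heterochromatin protein 1 family members, ATF7IP, MTA1 and RBBP4, with rises of 0.31 to 0.40. EHMT1, CBX1, CBX5, ATF7IP and RBBP4 each passed at a single probe, and their other probes were positive but did not pass. The brightest probes of RBBP4 and CBX1 gave 0.26 and 0.30 (limma adjusted p = 0.173 and 0.0674). The dimmer probe of ATF7IP gave 0.08, and the other probes of EHMT1 gave 0.31 and 0.05 (limma adjusted p = 0.639, 0.346 and 0.859). The count of 9 was 3, 3 and 2 without siControl replicates 1, 2 and 3, and 5 and 4 without siRND3 replicates 1 and 3. Of 7 markers of immune, endothelial and epithelial cells, 1 passed at 24 h (PECAM1, difference -0.99, limma adjusted p = 0.0212), 5 did not pass and CDH1 was too dim to be tested. Of the glioma markers NES rose by 0.41, CD44 fell by 0.56 and OLIG2 fell by 1.40 (limma adjusted p = 0.0448, 0.00855 and 0.00166). The other probe of NES gave 0.23 (limma adjusted p = 0.196). VIM (-0.07) and FN1 (-0.24) did not pass. The part of all these markers in the zinc finger differences was not tested.

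At 48 h, with 1 array a group and no test, the median difference was higher. The median over 119 genes of the block was 0.46, beside 0.06 over all genes, and 89 of them were positive. The siRND3 array was more than 2-fold higher for 30 genes (25.2%), against a background of 4.61% of all genes, and more than 2-fold lower for 1 gene, against a background of 6.81%. That gene was ZNF706, which read 7.44 in siControl and 6.20 in siRND3. In ZNF1 to ZNF599 the median was 0.63 and 76 of 266 genes were more than 2-fold higher. ZNF616 read 5.10 in siControl and 8.73 in siRND3, a difference of 3.63 or 12.4-fold. ZNF845 read 5.84 and 8.29, ZNF766 read 7.52 and 9.93, and ZNF721 read 6.34 and 8.63. In the run from ZNF649 to ZNF813, 9 of 14 genes were more than 2-fold higher and the median was 1.10. Of the 9 genes from ZNF1 to ZNF599 within this run, 4 were more than 2-fold higher and the median was 0.82.

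The arrays of 48 h are separate from those of 24 h, and genes called up at 24 h kept their direction there. All 28 called rises were again higher in siRND3 at the called probe with the largest change, 26 of them by more than at 24 h, and their median difference was 1.25 against 0.66. The called falls were mixed. ZNF655 read 9.81 in siControl and 8.47 in siRND3, further apart than at 24 h, and ZNF697 and ZNF792 were again lower in siRND3, by 0.53 and 0.29. ZNF644 had -0.64 at its brighter called probe and 0.06 at its dimmer one, and ZNF777 had 0.12 at its brighter called probe and a difference smaller than 0.01 at the dimmer one. Over all genes called at 24 h, 96.7% had the same direction at 48 h. Of the 87 members not called, 67 (77.0%) did. Of the genes with the largest rises, ZNF618 (called probe), ZNF736 and ZNF813 did not stand well above background in siControl at 48 h. Their readings there were 4.10-fold, 2.45-fold and 2.33-fold higher in siRND3, and the size of these folds is uncertain because the siControl reading was near background.

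The higher differences at 48 h went with lower signals on the siControl array and, to a smaller median extent, higher ones on the siRND3 array. From 24 h to 48 h, 88 of the 120 genes (73.3%) were lower in siControl, where 51.5% of all genes were, and the median change was -0.24, beside -0.01 over all genes. In siRND3 cells 71 genes were higher and 49 lower, and the median change was 0.09, beside 0.03 over all genes. In a fit of all 8 arrays, in which the single arrays at 48 h are assumed to vary like those at 24 h, 14 genes fell with time in siControl and 1 rose, against a background of 4.03% of all genes falling and 1.22% rising. In siRND3 3 fell and 6 rose, against a background of 9.32% and 3.65%. These contrasts share arrays with each other and with the comparison at 24 h. The 14 falls became 3 without any 1 of the siControl replicates and 9 without siRND3 replicate 3. In siRND3 the 6 rises became 3 without siControl replicate 2, and the 3 falls became 1, 0 and 1 without siControl replicate 1, siControl replicate 3 and siRND3 replicate 3. ZNF1 to ZNF599 had a median change of -0.24 in siControl too, with 48 of 266 genes falling.

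ZNF664, a C2H2 gene of chromosome 12, changed most with time. It read 11.40, 11.40 and 11.42 in siControl at 24 h and 9.19 at 48 h, a change of -2.22 (limma adjusted p = 0.00461). In siRND3 it read 11.66, 11.56 and 11.61 at 24 h and 11.04 at 48 h, a change of -0.57 (limma adjusted p = 0.0179). It was thus close between treatments at 24 h, with a difference of 0.20 that did not pass (limma adjusted p = 0.107), and 1.86 apart at 48 h. ZNF766 changed from 9.03, 9.11 and 8.93 to 7.52 in siControl, by -1.51 (limma adjusted p = 0.0101), and from 9.89, 9.61 and 9.76 to 9.93 in siRND3, by 0.17 (limma adjusted p = 0.478). ZNF765 changed in siControl from 7.03, 7.11 and 7.13 to 5.38 at its brighter probe, by -1.71 (limma adjusted p = 0.0101), with 7.86, 7.82 and 8.12 and then 7.81 in siRND3. Its dimmer probe, near background in siControl, had a change of only -0.36 there (limma adjusted p = 0.716). ZNF655 went the other way in siControl at its dimmer probe, from 9.20, 9.11 and 9.17 to 9.81, a rise of 0.65. Its brighter probe did not rise there, with a change of -0.08.

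**Figure D5:**
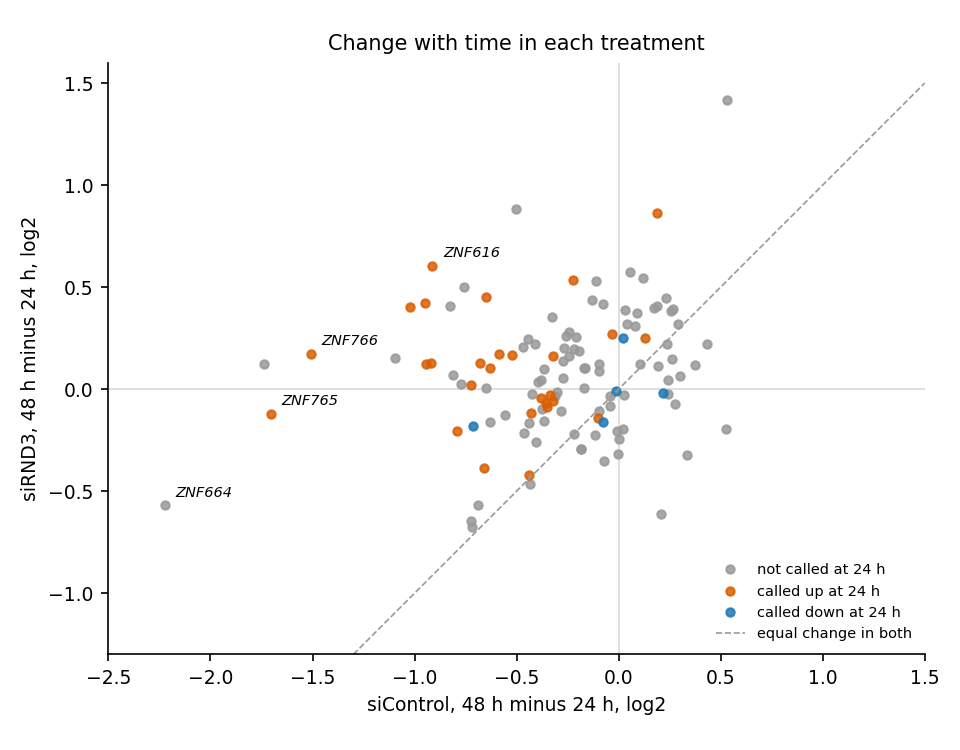
Change from 24 h to 48 h (log2) in siControl cells (horizontal axis) against siRND3 cells (vertical axis) for the 120 tested genes at their brightest probe, coloured by the call at 24 h. Points above the dashed line have a higher siRND3 minus siControl difference at 48 h than at 24 h. Most points lie left of 0, with ZNF664 at -2.22, ZNF765 at -1.71 and ZNF766 at -1.51 in siControl.

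At the brightest probe of each gene, the effect at 48 h minus that at 24 h had a median of 0.28 over the block. The median was 0.42 over ZNF1 to ZNF599 and 0.02 over all genes, so a higher effect at 48 h was not particular to the block. This difference between the effects was tested in the same 8-array fit. It passed for 10 genes in which the effect was higher at 48 h and 1 in which it was lower (ZNF655, -0.79, limma adjusted p = 0.0422), against a background of 1.72% and 2.61% of all genes. The lower effect of ZNF655 came from its dimmer probe, and its brighter probe had only -0.08. The 10 genes with a higher effect were ZNF616, ZNF624, ZNF629, ZNF658, ZNF664, ZNF669, ZNF747, ZNF765, ZNF766 and ZNF845. ZNF766 had an extra difference of 1.68 (SE 0.20, limma adjusted p = 0.0231), ZNF664 1.65 (SE 0.13, limma adjusted p = 0.0127), ZNF765 1.58 (SE 0.20, limma adjusted p = 0.0255) and ZNF616 1.52 (SE 0.24, limma adjusted p = 0.0365). Over 12 alternative settings the call was lost in 8 for ZNF616, 5 for ZNF765 and 3 each for ZNF664 and ZNF766. Under normexp the value was 0.93 for ZNF616 and 0.74 for ZNF765, both still called, and the mean of the probes of ZNF765 gave 0.77 (limma adjusted p = 0.299). The dimmer probe of ZNF765 alone had -0.04 (limma adjusted p = 0.985). ZNF669, ZNF747 and ZNF664 were not called at 24 h and were more than 2-fold higher in siRND3 at 48 h, with differences of 1.47, 1.36 and 1.86. ZNF624 read 3.53 in siControl at 48 h, which was not well above background, so the size of its extra difference is uncertain. Without any 1 of the siControl replicates no gene passed in either direction, and 3, 5 and 4 genes passed upwards without siRND3 replicates 1, 2 and 3.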

How the data were processed

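The authors hybridised 1 sample to each of 8 arrays and deposited scanner files from Agilent Feature Extraction 10.7.3.1. The deposited intensity of each spot is linear. Background had been corrected within arrays, with no scaling between arrays, per the file headers. A deposited table of log2 values was quantile-normalised according to the methods. These log2 values had the rank order of the uncorrected spot medians on every array. Groups and replicate numbers came from the labels.

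Here log2 of the processed signal was quantile-normalised over the 8 arrays after control spots (4259 of 62976) and outlier spots (0.364% to 0.53% per array) were left out. Spots of a probe were averaged (42405 probes). No spot was saturated, and 68.3% to 70.7% of probes were well above background per array. Probes were named by transcript accession through RefSeq genes of GRCh38.p14, and 25422 (60%) matched a symbol. Differences were fitted with limma 3.58.1 in R 4.3.3, on the 6 arrays of 24 h or on all 8 with 4 groups, without covariates. Where 1 value stands for a gene, the probe with the highest mean at 24 h was used. The number of arrays limits the precision. With 3 arrays against 3, an exact permutation test cannot go below p = 0.1, so none was used.

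Genes named were RND3, the 10 largest called rises and up to 6 called falls with all 6 arrays above background and no overlap, the 4 largest changes of effect with time, the 3 largest changes in siControl each way, members with a known role, and corepressors that passed. Genes outside this rule (ZNF706, ZNF669, ZNF747, ZNF137P, ZNF320 and those listed with counts) were chosen after their values were seen. The members, lists and promoters shown were chosen with earlier results of these data known. A split by KRAB box or finger number was not run, since no protein sequences were used here. Fits were tested on simulated data. Alternatives were scaling to the 75th percentile, normexp correction (offset 50, on spot medians), the authors' values, other filters, SAM, a replicate block, other handling of probes, and each array left out.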

Additional observations from a re-analysis of the deposited data

Results flagged for a closer look

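The effect of the knockdown differed between 48 h and 24 h for 11 genes from ZNF600 to ZNF899, by the limma interaction term of the fit of all 8 arrays. The effect was higher at 48 h by 1.68 for ZNF766, 1.65 for ZNF664, 1.58 for ZNF765 and 1.52 for ZNF616 (log2). Every one of these values rests on the single arrays of 48 h, and a fault of either array was not tested. In these 4 genes the siControl array of 48 h lay below all 3 siControl arrays of 24 h. In siRND3 the change from 24 h to 48 h was 0.17 for ZNF766, -0.57 for ZNF664, -0.12 for ZNF765 and 0.60 for ZNF616. The dimmer probe of ZNF765 gave -0.04 for the same term. The median of this term was 0.28 over ZNF600 to ZNF899 and 0.42 over ZNF1 to ZNF599.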

How the results depend on the processing

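No called result reversed, whereas the uncalled differences of ZNF683, ZNF703, ZNF746 (brighter probe) and ZNF827 changed sign in some settings. All 33 genes called at 24 h kept their direction under scaling to the 75th percentile, normexp correction and the authors' values. Scaling to the 75th percentile gave medians of 0.20 at 24 h and 0.43 at 48 h, a median change of -0.16 in siControl, 6 genes with a higher effect at 48 h and 6 falling with time in siControl. Normexp gave 0.10, 0.28, -0.12 and, in siRND3, 0.057, with 2 corepressors falling. The authors' values gave 0.13, 0.37, -0.19 and 0.064. Without a filter on dim probes the median was 0.13 at 24 h, the changes with time were -0.21 in siControl and 0.031 in siRND3, 8 genes fell and 5 rose in siControl, and 4 had a lower effect at 48 h. With all 8 arrays and time as a term, 8 members and 1 corepressor fell and the median was 0.24. With the mean of a gene's probes, 9 fell, 0 had a lower effect at 48 h, and the changes with time were -0.27 and 0.066. Averaging spots first, chosen after seeing the data, gave 0.43 at 48 h. SAM gave 29 rises and 7 falls.

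With each array left out in turn, the rises of ZNF600 to ZNF899 ranged from 16 to 22 and the falls from 2 to 4, those of ZNF1 to ZNF599 from 27 to 42 and 2 to 4, and corepressor rises from 2 to 6. The median at 24 h ranged from 0.12 to 0.18, and the changes with time from -0.27 to -0.23 in siControl and from 0.055 to 0.11 in siRND3. Genes with a higher effect at 48 h ranged from 0 to 5 and with a lower effect from 0 to 0. In siControl 3 to 10 fell and 0 to 1 rose with time, and in siRND3 0 to 4 fell and 3 to 5 rose.

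Deviations of same-numbered arrays from their group means correlated at 0.00178, -0.0116 and 0.128, and those of other pairs at -0.134 to 0.112. Such correlations cannot tell whether same-numbered samples were prepared together, so pairing is unknown. With the replicate block there were 19 rises and 2 falls, 31 and 3 in ZNF1 to ZNF599, and 3 corepressor rises. Zinc finger probes were dim, with a median log2 signal of 7.16 in siControl beside 8.84 over all genes, and 4 of the 120 genes were not above background on all 6 arrays.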
